A study of Mus musculus with 2 samples.

Results

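The genes described here encode transcription factors of epithelial differentiation: the Klf and Sp zinc finger proteins, the Gata, Cebp, Grhl and Elf families with Ehf, and Trp63. They were chosen by a rule on gene symbols, without Sp5, and earlier results of these data were known at the time. Of 18193 genes with a probe set naming a single gene, 42 met the rule, and they were read by 101 of 34945 such probe sets. Cebpe, Cebpz, Klf8, Sp2 and Sp9 of the same families were not analysed here.

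The study set 2 cultures of fetal lung epithelium from ICR mice side by side, each on 1 Affymetrix array. Epithelium of embryonic day 11 was grown in Matrigel, a basement membrane gel, for 4 days with FGF10, a growth factor that lung buds need to grow, and CHIR99021, an inhibitor of GSK3 that stabilises beta-catenin. The pieces were embedded again for 2 days with FGF10, and the inhibitor was either kept in the medium or left out. Both cultures had therefore been exposed to it, and every ratio below sets continued exposure against withdrawal. With 1 array per condition there was no replicate and hence no test, and all values are single measurements.

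These families divide the work of building an epithelium. Klf and Sp proteins bind GC-rich promoter elements through 3 similar zinc fingers, and the family holds both activators and repressors, so that paralogs compete for the same sites. Gata6 and the Cebp factors act with the lung identity factors in the distal epithelium, where Cebpa is required for surfactant-producing cells to mature. Grhl proteins and the epithelial Ets factors Elf3, Elf5 and Ehf switch on adhesion and barrier genes, and Trp63 defines the basal stem cells of the airway.

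Of the 42 genes, 12 had a signal at least 2-fold lower with CHIR99021 than without it, and 0 were at least 2-fold higher. Over all 12917 measured genes 18.4% were lower and 1.9% higher by the same rule. The lower genes were Grhl3, Elf5, Trp63, Cebpd, Cebpa, Ehf, Klf5, Elf3, Klf14, Klf6, Cebpg and Klf3. They came from 5 of the 7 families, and no Sp or Gata gene was among them. Measured genes are those above a background floor on 1 array or both, the floor being 19.2 without and 12.7 with CHIR99021. By that rule 39 genes were measured, and Gata1, Klf15 and Sp8 were below the floor on both arrays. For Elf4, Gata4 and Gata5 the only signal above a floor was smaller than the other array's floor, so the direction of their ratio could not be given.

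The 12 lower genes made up 30.8% of the 39, against the 18.4% of all measured genes. The median log2 ratio, with over without CHIR99021, was -0.63 for the measured factors and -0.42 for all measured genes, bounds included. Over genes above the floor on both arrays it was -0.56 for 30 factors and -0.40 for all. Among genes with a signal of 10 times the floor or more on an array, 8 of 24 factors and 15.9% of 7510 genes were lower. Signals were lower with CHIR99021 across the whole array, and the beta-actin control had a 3' to 5' ratio of 1.29 without and 3.18 with the inhibitor. The part of this difference between the arrays in the ratios below was not tested.

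The count depended on how the arrays were scaled to each other. After median centring, quantile normalization and loess, 7 factors were lower and 1 was higher under each, and the 7 were the same genes: Cebpa, Cebpd, Ehf, Elf5, Grhl3, Klf5 and Trp63. The background of lower genes was then 7.44%, 6.33% and 7.02%, and that of higher genes 5.91%, 7.27% and 6.45%. Scaling on 9 bacterial hybridization controls gave 10 lower and 0 higher factors, against 13.7% and 2.74% of all genes. The median log2 ratio of all measured genes moved from -0.42 to 0.05, 0.12, 0.07 and -0.26 under these scalings, in the same order. Among the 30 factors above both floors, 9 changed sign under at least 1 of the 4 scalings: Elf2, Gata2, Gata3, Klf1, Klf13, Klf4, Sp1, Sp3 and Sp6, all lower on the deposited scale and within 2-fold.

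**Figure D1:**
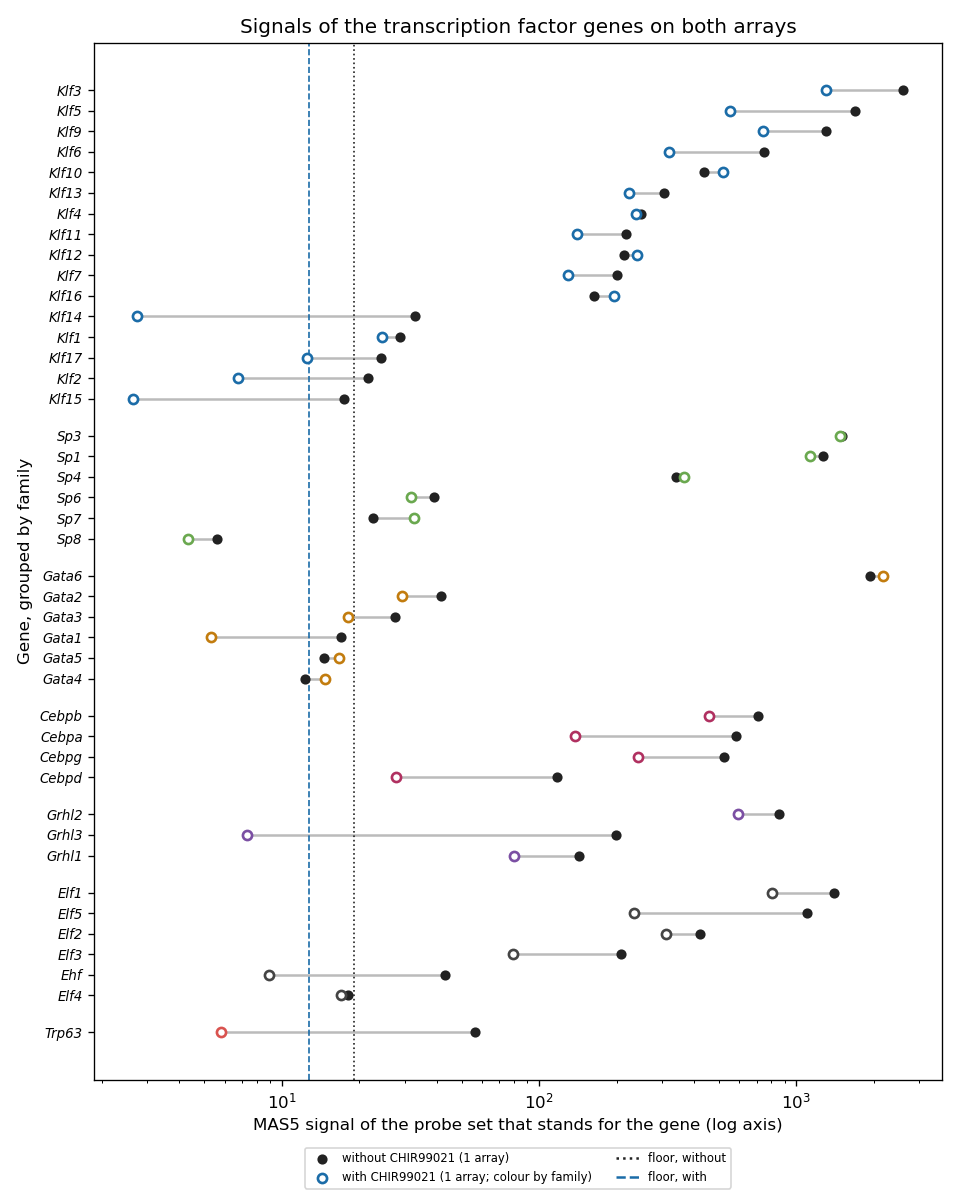
MAS5 signal (log axis) of the probe set that stands for each of the 42 genes, without CHIR99021 (filled) and with it (open, coloured by family), 1 array each, with the floors of 19.2 and 12.7 as vertical lines. The longest gap is that of Grhl3, from 199 to 7.34, and the circles of Sp3 and Klf4 nearly coincide.

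Promoters of 4 of these genes are shown because they set genes that were lower beside one whose signals were nearly equal. Each runs from 250 bases before to 50 bases after a transcript start, 300 bases on the gene's strand, from RefSeq (GRCm38.p6). Capitals mark matches on either strand to 7 motifs: the GC box GGGCGG of Sp and Klf proteins, the CACCC box CCACACCC of Klf proteins, the Gata motif AGATAA, the Cebp motif TTGCNNAA, the Grhl motif AACNGGTT, the Ets motif CAGGAAG and the TCF/LEF motif CTTTGAT. Grhl3 lies at chr4:135573583-135573882 on the minus strand, the downstream start of Elf5 at chr2:103423818-103424117 on the plus strand, Klf3 at chr5:64803271-64803570 on the plus strand and the downstream start of Sp3 at chr2:72979232-72979531 on the minus strand.
Grhl3: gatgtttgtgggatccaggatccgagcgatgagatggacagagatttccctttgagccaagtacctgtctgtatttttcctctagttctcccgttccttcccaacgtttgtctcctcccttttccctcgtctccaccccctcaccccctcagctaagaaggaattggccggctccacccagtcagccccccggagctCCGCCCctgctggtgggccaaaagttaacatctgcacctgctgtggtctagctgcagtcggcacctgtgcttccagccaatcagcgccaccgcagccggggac
Elf5: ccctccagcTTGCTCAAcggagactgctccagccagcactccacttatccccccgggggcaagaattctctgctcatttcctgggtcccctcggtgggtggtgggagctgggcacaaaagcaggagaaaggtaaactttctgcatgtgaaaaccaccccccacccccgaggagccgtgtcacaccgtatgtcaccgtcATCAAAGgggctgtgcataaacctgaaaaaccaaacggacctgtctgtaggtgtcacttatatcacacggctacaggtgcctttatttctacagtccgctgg
Klf3: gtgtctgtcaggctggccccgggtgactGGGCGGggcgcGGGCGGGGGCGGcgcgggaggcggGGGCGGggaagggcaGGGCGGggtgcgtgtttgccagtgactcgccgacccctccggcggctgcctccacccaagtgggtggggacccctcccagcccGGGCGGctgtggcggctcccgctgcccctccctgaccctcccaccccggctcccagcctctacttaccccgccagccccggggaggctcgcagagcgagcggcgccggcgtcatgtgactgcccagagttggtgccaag
Sp3: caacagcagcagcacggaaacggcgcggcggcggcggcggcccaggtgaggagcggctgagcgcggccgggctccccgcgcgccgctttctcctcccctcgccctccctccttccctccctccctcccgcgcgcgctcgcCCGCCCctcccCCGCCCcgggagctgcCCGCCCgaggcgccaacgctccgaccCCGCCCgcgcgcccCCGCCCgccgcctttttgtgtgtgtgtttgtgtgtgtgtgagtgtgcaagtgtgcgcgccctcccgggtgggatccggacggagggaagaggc

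The Klf3 window held 6 GC boxes and the printed Sp3 window 5, at GC contents of 76.7% and 76.3%. The window of the upstream Sp3 start, not printed, held 2 GC boxes at a GC content of 66.7%. Klf3 was at the 2-fold limit and Sp3 had a log2 ratio of -0.02. The Grhl3 window held 1 GC box and no Grhl motif. The printed Elf5 window held a Cebp motif at -241 and a TCF/LEF motif at -52, counted from the transcript start to the motif's first base. The window of the upstream Elf5 start, not printed, held a Cebp motif at -235 and no TCF/LEF motif. Of the 42 genes, 30 had a promoter that was read, 7 of them among the lower genes. Promoters of these factors on 1 chromosome were left out, while the shares over all promoters included that chromosome. GC boxes were present for 24 of the 30, 80.0%, and in 35.7% of all 32851 promoters. A TCF/LEF motif was found for 1 of 30 genes, Elf5, and in 3.73% of all promoters. The Ets motif was found for 6 of 30 genes and in 13.3% of promoters, the CACCC box for 2 and in 3.56%, the Cebp motif for 2 and in 10.8%, the Gata motif for 1 and in 11.2%, and the Grhl motif for 0 and in 2.09%. A gene counts here when any of its starts holds the motif, so genes with several starts have more chances. The matches describe letters in these windows and not binding. Matches to different motifs did not overlap in the printed windows.

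The Grhl family had the lowest ratio of all the factors. Grhl3, a regulator of barrier formation and neural tube closure, had 199 without the inhibitor and 7.34 with it. The second value is below the floor, so Grhl3 was at least 15.6-fold lower, and its log2 ratio of -3.97 lay at percentile 0.395 of all measured genes. It was read by a single probe set. Its paralogs differed far less. Grhl2, which maintains E-cadherin and claudin expression in lung epithelium, had 854 without and 596 with CHIR99021, a log2 ratio of -0.52. Further Grhl2 probe sets that exceeded both floors had -0.48 and -1.39, and the lower of these came from signals of 66.8 and 25.5. Grhl1, a desmosome regulator of the skin, had 143 without and 79.8 with the inhibitor, 1.79-fold lower and under the threshold. After median centring the ratios of Grhl1 and Grhl2 were -0.37 and -0.04, while that of Grhl3 was -3.49.

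The epithelial Ets factors were lower and the broadly expressed ones were under the threshold. Elf5, a factor of the distal lung tip and of milk-producing cells, had a signal of 1101 without and 233 with CHIR99021, 4.72-fold lower. Its dimmer probe set went the same way, from 34.5 to 11.3, below the floor, a difference of at least 2.71-fold. Elf3, induced during epithelial differentiation and repair, had 209 without and 79.0 with the inhibitor, 2.64-fold lower by its only probe set. Ehf, an Ets factor of glandular and airway epithelium, had 43.1 without and 8.94 with CHIR99021, at least 3.38-fold lower. A further Ehf probe set had 31.7 and 7.10, and the remaining pair was below the floor on both arrays.

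Elf1, Elf2 and Elf4 are Ets factors of many tissues, best known from blood cells. Elf1 had 1406 without and 807 with CHIR99021, 1.74-fold lower, and its other probe set had 84.3 and 60.3. Elf2 had 423 and 310, a log2 ratio of -0.45, but its other probe set above the floor had 117 and 46.4, a ratio of -1.33. Elf4 had 18.2 and 17.0, close to the floors. The 3 genes past the threshold in this family were thus Elf5, Ehf and Elf3, and of these Elf3 did not keep 2-fold under median centring, where its log2 ratio was -0.92.

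All 4 Cebp genes had a lower signal with CHIR99021, and 3 were past the threshold. Cebpa, which drives maturation of surfactant-producing cells, had 581 without and 138 with the inhibitor, 4.21-fold lower by its only probe set. Cebpd, a factor induced by glucocorticoids and inflammation, had 118 and 27.9, 4.22-fold lower. A dimmer probe set of Cebpd had 33.6 and 4.30, at least 2.64-fold lower. Cebpg, which lacks an activation domain and pairs with other bZIP proteins, had 522 and 242, 2.16-fold lower. Its 3 probe sets gave nearly the same log2 ratio, between -1.11 and -1.05.

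Cebpb, an inflammatory and hormone-responsive factor, had 708 without and 459 with CHIR99021, 1.54-fold lower. Its dimmer probe set was past the threshold, at 191 and 91.7, so the probe sets fell on both sides of it. After median centring Cebpa and Cebpd were at -1.60 each, Cebpg at -0.63 and Cebpb at -0.15.

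The Klf genes ranged from 3.07-fold lower to slightly higher, and 4 of 15 measured genes were past the threshold. Klf5, which is needed for maturation of the distal lung epithelium, had a signal of 1687 without and 550 with CHIR99021, 3.07-fold lower. Its other probe set above the floor had 528 and 136, a log2 ratio of -1.96. Klf5 was the only Klf gene still past 2-fold after each of median centring, quantile normalization and loess, at -1.14, -1.24 and -1.28.

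Klf6, an early-response tumour suppressor, had 751 without and 321 with CHIR99021, 2.34-fold lower. Its 5 probe sets were all lower with the inhibitor but spread widely, from -0.56 to -2.86. The lowest came from 252 and 34.8, and the highest from 60.6 and 40.9. Klf3, a repressor that recruits the CtBP corepressors, had 2608 without and 1302 with CHIR99021, barely past the threshold, and its 6 probe sets that exceeded both floors ranged from -0.64 to -2.48, with 4 of the other 5 past it. Klf14, an imprinted regulator of fat tissue, had 32.9 and 2.73, at least 2.58-fold lower by 1 dim probe set.

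Among the Klf genes within the threshold, some were dimmer with the inhibitor and others nearly equal. Klf9, a target of glucocorticoid and thyroid hormone receptors, had 1309 without and 745 with CHIR99021, 1.76-fold lower. Its 6 probe sets above the floor ran from -0.33 to -1.87, and 3 of them were past -1. Klf7, known from neurons, had 201 and 130, with probe sets from -0.22 to -1.29. Klf11, a TGF-beta-induced repressor, had 218 and 140, and Klf13, a related repressor, 305 and 223. Klf2, best known from endothelium and T cells, had 21.5 and 6.76, and Klf17, a germ cell factor, 24.2 and 12.5, both below the floor with the inhibitor. Klf1, the red cell factor, had 28.8 and 24.6.

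Klf4, Klf10, Klf12 and Klf16 had nearly equal signals on the deposited scale. Klf4, which restrains growth in barrier epithelia, had 248 without and 238 with CHIR99021, and its other probe set 124 and 78.4. Klf10, the TGF-beta-induced paralog of Klf11, had 437 and 517. Klf16, another Sin3-binding repressor, had 164 and 195. Klf12, which like Klf3 binds CtBP, had 214 and 240 by one probe set, 210 and 171 by another and 74.4 and 35.0 by the dimmest above the floor, so its probe sets disagreed in sign. Relative to the median gene of -0.42 these genes stood on the high side: Klf10 lay at percentile 87.7 and Klf16 at percentile 88.0 of all measured ratios.

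**Figure D2:**
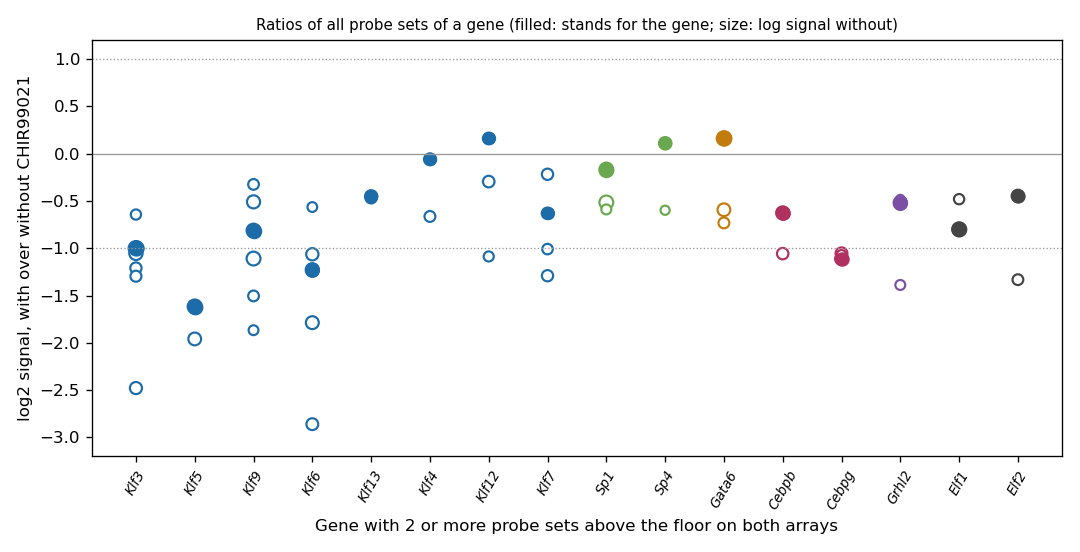
Log2 ratios, with over without CHIR99021, of every probe set exceeding both floors for the 16 factors with 2 or more such probe sets; filled points stand for the gene and point size follows the log signal without CHIR99021. Klf3 and Klf6 lie below 0 throughout, Cebpg is tight at about -1.1, and Klf12, Sp4 and Gata6 have points on both sides of 0.

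Probe sets of a gene agreed in sign for most factors. Of 64 probe sets that exceeded both floors, 58 had a lower signal with CHIR99021, 90.6%, where 79.5% of all 20543 such probe sets did. The other 6 were those standing for Gata6, Klf10, Klf12, Klf16, Sp4 and Sp7. For Gata6, Klf12 and Sp4 every other probe set that exceeded both floors was lower, and Klf10, Klf16 and Sp7 were read by a single one. Across these 16 genes, the SD of log2 ratios within a gene was 0.55, close to the 0.56 over 5335 genes with several probe sets. That SD measures differences between probes, not between cultures, and a ratio of 2-fold from 1 probe set is less than 2 such SDs from 0.

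None of the 5 measured Sp genes was past the threshold in either direction. Sp1 and Sp3 are the ubiquitous GC-box factors, Sp1 an activator and Sp3 able to activate or repress. Sp3 had 1503 without and 1479 with CHIR99021. Sp1 had 1274 and 1134 by the probe set that stands for it and 1293 and 904 by another, with log2 ratios of -0.17 and -0.52. Sp4, enriched in neurons, had 339 and 366, and 42.2 and 27.9 by its dimmer probe set.

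The developmental Sp genes were dim. Sp6, a factor of tooth and hair epithelium, had 38.9 without and 31.9 with CHIR99021. Sp7, the bone factor osterix, had 22.6 and 32.5, a log2 ratio of 0.53 from signals close to the floor. It was the 1 factor that became at least 2-fold higher after median centring, quantile normalization and loess, just past the threshold in the first and at 1.22 and 1.15 in the others. Sp8, a limb and brain factor, was below the floor on both arrays. The median log2 ratio of the 5 measured Sp genes was -0.02 on the deposited scale and 0.45 after median centring, against -0.42 and 0.05 for all measured genes.

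Among the Gata genes Gata6 carried the signal. Gata6, the Gata factor of lung epithelium and of endoderm, had 1937 without and 2165 with CHIR99021, a log2 ratio of 0.16. Its other probe sets had 506 and 335, and 123 and 74.0, so they went the other way, at -0.59 and -0.73. The median over its probe sets was -0.59, and the direction of Gata6 depends on which probe set is read. Gata2, a blood and endothelial factor, had 41.4 without and 29.3 with the inhibitor, and Gata3, of T cells and breast epithelium, 27.4 and 18.2. Gata4 had 12.3 and 14.8 and Gata5 14.6 and 16.7. Both are Gata factors of heart and gut, and both were at or near the floors on each array, as was Gata1, the red cell factor.

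Trp63 was dim on one array and below the floor on the other. Its signal was 56.2 without and 5.80 with the inhibitor, at least 4.42-fold lower. The 3 other probe sets of Trp63 were below the floor on both arrays, so this ratio rests on a single dim probe set.

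**Figure D3:**
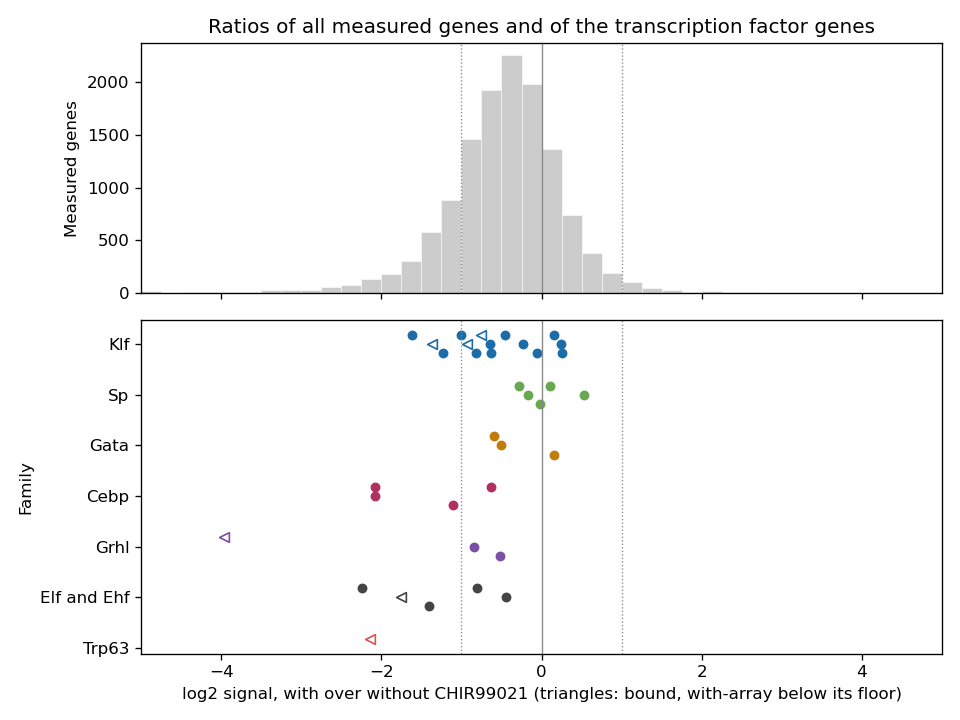
Top, the number of measured genes by log2 ratio, with over without CHIR99021, in bins of 0.25, values beyond the axis in the end bins; bottom, the 36 factors with a ratio or bound, by family, triangles marking bounds with the inhibitor array below its floor. Dotted lines are 2-fold: all 5 Sp genes and the 3 Gata genes shown lie within them, and Grhl3 lies farthest to the left at -3.97.

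Paralogs with similar binding sites thus had unlike ratios on these arrays. On the deposited scale the log2 ratios of Grhl3 and Grhl2 were -3.97 and -0.52, those of Elf5 and Elf1 -2.24 and -0.80, those of Cebpa and Cebpb -2.08 and -0.63, and those of Klf5 and Klf4 -1.62 and -0.06. In these pairs, chosen after their values were seen, the order was the same under quantile normalization and loess. Median centring and hybridization control scaling shift every log2 ratio by the same amount, so they could not change the order. The differences were not tested, since there was 1 array per condition.

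**Figure D4:**
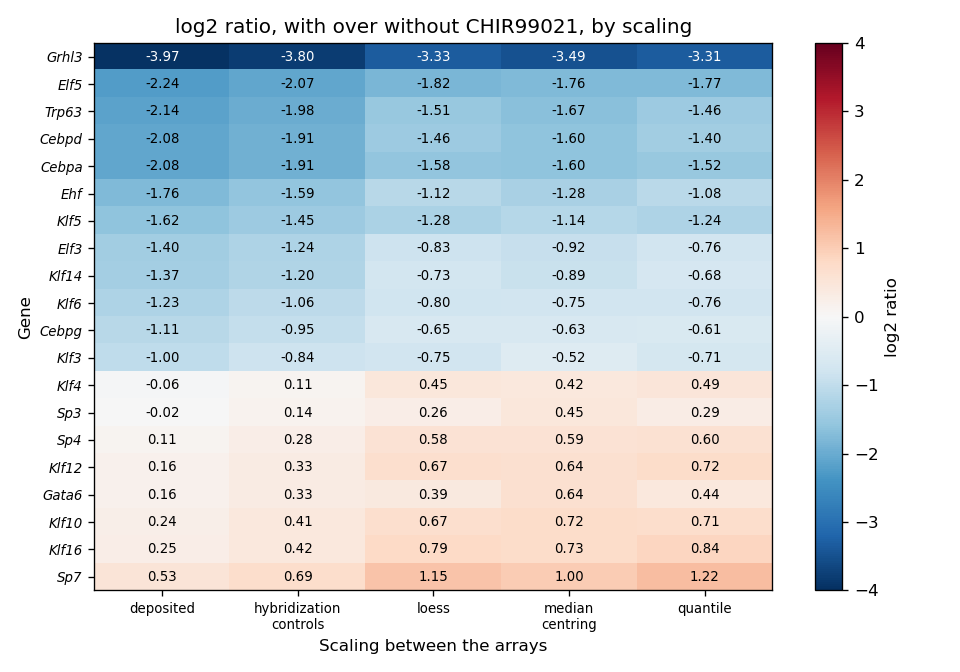
Log2 ratio, with over without CHIR99021, of the 12 lower factors and of 8 factors with nearly equal or higher signals, on the deposited scale and under 4 other scalings of the arrays, coloured from blue (lower with the inhibitor) to red (higher). Grhl3 stays between -3.97 and -3.31, Elf3, Klf14, Klf6, Cebpg and Klf3 pass above -1 under loess, median centring and quantile normalization, and Klf4 and Sp3 change sign.

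Proteins that work with these factors mostly had similar signals on both arrays. Of 21 measured genes in a list of partners and regulators, 4 were lower and 0 higher, a share of 19.0% beside the background of 18.4%, and the median log2 ratio was -0.22. Wwp1, a ubiquitin ligase that targets Klf5 among others, had 1432 without and 266 with CHIR99021, 5.39-fold lower. Trib1, a pseudokinase that promotes degradation of Cebpa, had 135 and 29.8, 4.54-fold lower. Sin3a, the corepressor of the Klf10 and Klf11 group, had 329 and 142, 2.31-fold lower. The fourth was Trib2, a dim relative of Trib1 named after its value was seen, at 37.2 and 10.5. After median centring 3 were lower and 0 higher.

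In 4 groups of epithelial genes, the share of lower genes was above that of the partners. Control of these genes by the factors was not tested. Among 30 measured genes of junctions and epithelial adhesion, the field of Grhl and Ets factors, 12 were lower and 0 higher, with a median log2 ratio of -0.84. Ovol1, an epithelial zinc finger repressor, had 83.8 without and 20.1 with CHIR99021, and Esrp2, an epithelial splicing factor, 1623 and 461. Cldn18, a lung claudin, had 4360 and 1087, and Dsc2, a desmosomal cadherin, 771 and 12.8. Among 21 genes of surfactant and lipid metabolism, the field of Cebpa, 11 were lower and 0 higher, with a median of -1.04. Cd36, a fatty acid receptor, had 2895 and 73.5, 39.4-fold lower, and Pparg, a lipid regulator named after its value was seen, 139 and 18.7. Sftpc and Fasn, also named after their values were seen, were within 2-fold. Sftpc had 8808 without and 8500 with CHIR99021, and Fasn 2007 and 3331. Of the 20 genes of this group above both floors, 16 had a lower signal with the inhibitor and 4 a higher one.

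Among 11 measured genes of basal cells and hemidesmosomes, the field of Trp63, 4 were lower and 1 higher, with a median of -0.90. The higher one was Lama3, a laminin chain, at 712 without and 2484 with CHIR99021, and Jag2, a Notch ligand, was lower, at 85.3 and 33.3. Also lower were Aqp3, at 420 and 19.9, and the basal keratin gene Krt15, at 85.2 and 0.87, below the floor with the inhibitor. The basal keratin gene Krt5, named after its value was seen, was dim and within 2-fold, at 38.5 and 25.2. Those of Krt14 and Krt17 were below the floor on both arrays. Among 11 measured airway secretory genes 10 were lower and 0 higher, with a median of -2.27. Median centring left 8, 7, 3 and 8 lower genes in these groups, in the order given, with 0, 2, 1 and 0 higher. The share of lower genes in the groups was 40.0%, 52.4%, 36.4% and 90.9% on the deposited scale, against 18.4% of all measured genes.

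**Figure D5:**
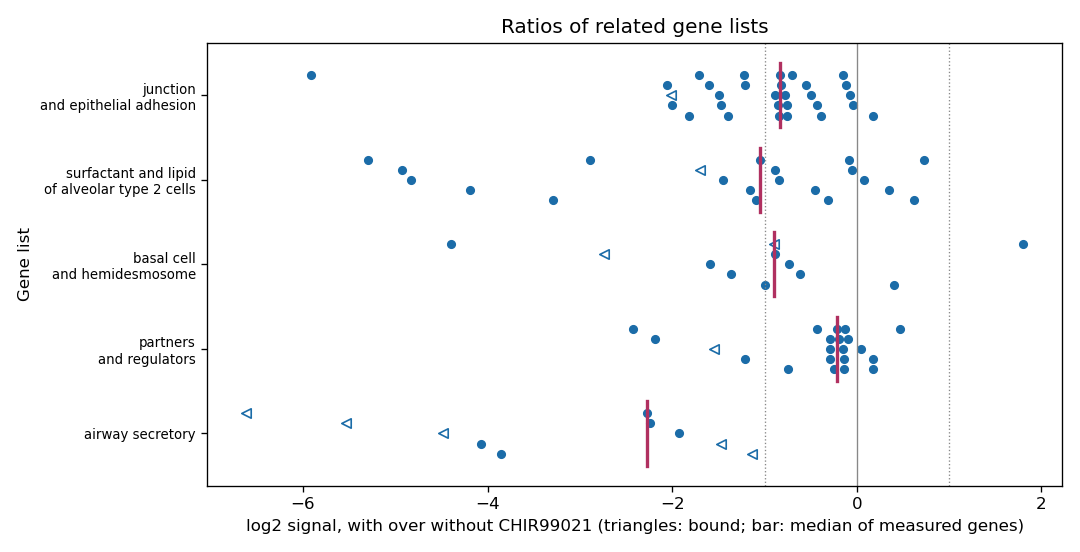
Log2 ratios, with over without CHIR99021, of the measured genes of 5 related lists with a ratio or bound; triangles mark bounds and the red bars the median over measured genes. The partners and regulators centre at -0.22, near equal signals, and the airway secretory genes at -2.27.

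Markers of other cell types were checked because several of these factors are best known from blood, endothelium or liver. Of the 12 lung epithelial markers all were above the floor without CHIR99021 and 11 with it. The exception was Nkx2-1, which rests on 1 dim probe set whose signal went from 52.0 on withdrawal to 5.84 on continued exposure. By the 2-fold rule 4 of these markers were lower, 7 within the threshold and 1 higher. The higher marker was Sox9, named after its value was seen, whose signal was 70.1 on withdrawal and 771 on continued exposure. The summed signal of the 12 markers was 50383 without and 36712 with the inhibitor. Of 8 red cell genes with a probe set 2 were measured, Epor and Gfi1b, and the globin genes were below the floor on both arrays. Of 10 endothelial genes 3 were measured, with a summed signal of 159 without and 208 with CHIR99021, and Pecam1 and Cdh5 were below the floor on both arrays. Of 12 leukocyte genes 5 were measured, Ptprc was below the floor on both arrays, Lyz2 is also in the surfactant group, and Cd14 had 177 without and 37.1 with the inhibitor.

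Of 14 mesenchymal genes 7 were measured and 0 were past 2-fold. The signals of all 14 summed to 747 without and 668 with CHIR99021. Vim had 257 and 245. Of 12 liver and gut genes 8 were measured and 3 were lower. The signals of all 12 summed to 1163 without and 342 with the inhibitor. Afp, a fetal liver protein, had 928 and 241, and Alb, albumin, 105 and 9.46. Afp supplied most of both sums and was the only 1 of these genes above the floor on both arrays. The 5 measured genes counted as within 2-fold were each below the floor on 1 array, so they do not show equal signals. The summed liver and gut signal was thus lower on the same array as Cebpa and Cebpd, mainly through Afp. Its part in those ratios was not tested. In bulk samples, fewer cells of a type and less RNA per cell cannot be told apart.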

How the data were processed

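The authors deposited 1 linear signal intensity per probe set, made with MAS5 per the submitters' processing notes. No version or scaling target is given there, and the scaling stays unknown. The labelling, from 100 ng of total RNA, used a 3' kit, per the labels. Median signals over probe sets other than controls were 32.9 without and 20.3 with CHIR99021. The number of arrays, 1 per condition, limits the precision. Of 45101 probe sets, 34945 named 1 gene apart from controls, 932 several and 9211 none in the platform annotation. All 42 member symbols matched RefSeq (GRCm38.p6) by Entrez identifier.

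Each gene was read from its single-gene probe set of highest mean log2 signal. The floor of each array was the 95th percentile of 80 olfactory and vomeronasal receptor probe sets, and lower values were raised to it, which makes such ratios bounds. A call was a ratio of 2-fold. Where a gene's only signal above a floor was under the other array's floor, it was counted as within 2-fold. Members and lists were chosen with earlier results of these data known. Some genes that the rule names are not reported here. All members with a probe set were described; at most 4 genes were named per list, by the largest log2 ratio at 4 times the floor or more, or for marker lists by signal, apart from genes said to be named after their values were seen and the markers named as below the floor. Alternatives were 4 scalings (loess span 0.4), floors at the 90th and 99th percentile, no floor, an offset of 16, the median over probe sets, dropping _x_at and _s_at probe sets, and thresholds of 1.5-fold and 3-fold. A simulation checked median centring and the calls for large changes in bright genes. It did not cover changes in dim genes or ratios near 2-fold. Python 3.11.15, numpy 2.4.6, pandas 2.3.3, statsmodels 0.14.6 and matplotlib 3.10.9 were used.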

Additional observations from a re-analysis of the deposited data

How the results depend on the processing

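The median log2 ratio of the measured factors was -0.63 on the deposited scale, -0.15 after median centring, -0.028 after quantile normalization, -0.10 after loess, -0.46 with hybridization control scaling and -0.51 with an offset of 16. It stayed within 0.1 of the deposited value under the other floors, no floor, the median over probe sets and without the suffixes _x_at and _s_at. The 12 lower factors became 7 after median centring, quantile normalization and loess, 21 at 1.5-fold and 7 at 3-fold, and numbered between 10 and 15 under the other alternatives. At 1.5-fold 53.8% of measured factors and 38.7% of all measured genes were lower. The shares were 17.9% and 6.29% at 3-fold, and 35.7% and 25.3% without a floor. The 0 higher factors became 1, Sp7, after median centring, quantile normalization and loess, and stayed at 0 otherwise. Over the 5 related lists, 41 genes were lower and 1 higher. The lower ones became 27 after quantile normalization and 27 at 3-fold. The higher ones became 3 after median centring, 2 after quantile normalization, 2 after loess, 4 without a floor and 3 at 1.5-fold. No called ratio of a factor changed sign under the 10 alternatives that give ratios, but several of these could not have changed it. Median centring and hybridization control scaling shift all ratios by the same amount, less than 2-fold. Dropping the floor or adding an offset cannot change which signal of a called factor is lower. The thresholds change the counts by construction, and the cause of the other changes was not tested. No paired analysis was possible because there was 1 array per condition. Dim probe sets limit what can be read for Trp63, Ehf, Klf14, Sp7 and the small Gata genes, which had signals under 60 on both arrays.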
